A study of Rattus norvegicus with 484 samples.

Results

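The livers of 12 rats given retinoic acid at 25 mkd (the dose unit as the labels write it) were compared with those of 58 rats given vehicle, to find which gene responses were larger, smaller or about the same late in the study (days 5 and 6) than early (days 2 and 3). These 70 liver arrays, out of 484 arrays in all, were chosen by tissue, compound and day from the sample titles, and not by any measured value. The late arm held 6 retinoic acid rats and 30 vehicle rats (3 and 14 on day 5, 3 and 16 on day 6). The early arm held 6 retinoic acid rats and 28 vehicle rats (3 and 14 on each of days 2 and 3). A further 3 retinoic acid and 15 vehicle livers of day 4 belonged to neither arm and were used as a separate time point.

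The study profiled rat tissues after agonists of the peroxisome proliferator-activated receptors (PPARs) and after retinoic acid. Each array set the RNA of 1 rat against a pool of vehicle livers of the same day, in a second dye. The vehicle rats were hybridised one by one against the pool too, and the effect of retinoic acid is the mean log2 ratio of its rats minus that of the vehicle rats of the same day. The livers of rats given fenofibrate (400 mkd), bezafibrate (250 mkd), Wy-14643 (100 mkd) or rosiglitazone (100 mkd) on the same days, 47 arrays, served as a comparison. All 147 liver arrays, those of day 4 included, also shared 1 estimate of the spread in the model. The other compounds thus bear on which retinoic acid effects were called. Strain, sex, age, route and dosing schedule of these rats are not given in the labels used here.

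All-trans retinoic acid is the active form of vitamin A. It binds the retinoic acid receptors, which pair with retinoid X receptors on direct repeats of a short half-site in DNA and switch on genes such as Rarb and Cyp26a1. Cyp26 enzymes hydroxylate and so inactivate retinoic acid, and Lrat esterifies retinol for storage, which makes the liver both the main store of vitamin A and a place of its breakdown.

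The promoter windows of 4 of these retinoid genes are shown because their responses anchor the results. Each runs from 250 bases before to 50 bases after the annotated start, 5′ to 3′ on the gene's strand, from RefSeq (build GRCr8). They lie at chr1:244883572-244883871 (Cyp26a1, plus strand), chr15:11336142-11336441 (Rarb, plus strand), chr4:118616127-118616426 (Cyp26b1, minus strand) and chr2:170571163-170571462 (Lrat, minus strand). Capitals mark a direct repeat of half-sites, 5 bases apart, where a half-site is AGGTCA or AGTTCA, or begins with G instead, as GGGTCA or else GGTTCA.
Cyp26a1: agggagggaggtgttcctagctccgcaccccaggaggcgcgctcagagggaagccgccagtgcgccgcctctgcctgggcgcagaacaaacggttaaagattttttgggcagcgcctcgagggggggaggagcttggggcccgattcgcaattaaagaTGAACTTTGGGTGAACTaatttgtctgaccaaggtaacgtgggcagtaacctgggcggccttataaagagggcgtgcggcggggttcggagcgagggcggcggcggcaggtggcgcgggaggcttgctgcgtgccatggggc
Rarb: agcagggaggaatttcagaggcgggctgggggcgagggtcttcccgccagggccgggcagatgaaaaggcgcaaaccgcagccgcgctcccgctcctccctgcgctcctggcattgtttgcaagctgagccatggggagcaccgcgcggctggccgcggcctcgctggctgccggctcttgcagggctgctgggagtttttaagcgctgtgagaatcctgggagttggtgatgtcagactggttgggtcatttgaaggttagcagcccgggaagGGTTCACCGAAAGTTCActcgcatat
Cyp26b1: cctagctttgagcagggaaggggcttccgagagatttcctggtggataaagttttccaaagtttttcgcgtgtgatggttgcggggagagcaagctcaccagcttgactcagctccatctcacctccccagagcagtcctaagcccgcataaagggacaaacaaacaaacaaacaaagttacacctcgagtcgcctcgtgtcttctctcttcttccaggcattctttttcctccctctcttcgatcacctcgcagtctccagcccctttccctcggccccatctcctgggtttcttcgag
Lrat: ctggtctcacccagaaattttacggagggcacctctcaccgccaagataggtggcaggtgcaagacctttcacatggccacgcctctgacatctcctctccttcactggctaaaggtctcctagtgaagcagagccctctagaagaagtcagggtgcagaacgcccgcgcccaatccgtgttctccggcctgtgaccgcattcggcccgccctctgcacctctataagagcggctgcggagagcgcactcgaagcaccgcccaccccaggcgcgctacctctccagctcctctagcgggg

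The search covered the 16 pairs of half-sites on both strands, at gaps of 5 and of 2 bases. The Cyp26a1 window held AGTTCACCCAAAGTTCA on the reverse strand, starting 92 bases before the start site, and the Rarb window held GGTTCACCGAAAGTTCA 24 bases after it. Of 33469 rat promoter windows of this length, 128 (0.382%) held such a repeat with a gap of 5 and 57 (0.17%) one with a gap of 2. None was found in the windows shown for Cyp26b1 and Lrat, nor in those of Rarg, Rbp7, Aldh1a3, Cyp2c22 and Akr1b10, so that 2 of the 9 genes matched had one. A match is a description of these letters, and no match says only that they are not in this window.

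The deposited values are log ratios whose base, direction and normalisation the labels do not state. They were read as the rat over the pool, and the base was taken as 10 because values stop at the 100-fold limit. Signs and fold changes rest on that reading. After averaging the probes of a gene, 18362 features (genes, and probes that name no single gene) were tested with limma and called at a Benjamini-Hochberg adjusted p of 0.05. The replicates are single rats by their numbers in the titles. The ratios hold no absolute level, so the labelled tissue could not be checked by the level of liver genes.

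Among the retinoic acid livers 2 arrays stood apart, both early. The median absolute deviation of the log ratios on the array of rat 1314 (day 3) was 2.34 times the liver median, and that of rat 1309 (day 2) was the next widest. Rat 1314 had 1927 features more than 1 log2 unit from its day's vehicle mean and rat 1309 had 595, against 178 to 456 in the other retinoic acid rats and 37 to 318 in single vehicle rats. Counts of called features and the named differences that rest on these rats are given with and without them. Leaving them out was chosen after seeing the data. The fit without them has fewer early rats and its own adjusted cut, so a call can be lost there without a smaller difference.

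The late effect was called for 2744 features (14.9% of those tested), 1324 higher (7.21%) and 1420 lower (7.73%) than in vehicle. The early effect was called for 3876 (21.1%), 2130 higher (11.6%) and 1746 lower (9.51%). The late effect minus the early effect was called for 1137 features (6.19%), 326 with a higher late effect (1.78%) and 811 with a lower one (4.42%). By day the effect was called for 2355 features on day 2 (12.8%), 3446 on day 3 (18.8%), 1047 on day 4 (5.7%), 574 on day 5 (3.13%) and 1636 on day 6 (8.91%). With all rats fewer features were called late than early, but this order turned without rats 1309 and 1314 (2938 late and 1309 early). It also turned without rat 1309 alone (2789 and 2237), without rat 1314 alone (2914 and 2165), without day 3 (2744 and 2355) and with arrays scaled to one spread (2940 and 1669). All but the last of these fits hold fewer early than late retinoic acid rats, so their counts compare arms of unequal size. Without rats 1309 and 1314 the difference was called for 15 features, 11 of them among the 1137. All 1137 differences kept their sign, but the other rats are the same in both fits, so this is no independent check. Without day 6 limma called 0 differences, and 1892 had an unadjusted p under 0.05, so the calls depend on that day as well. The late arm of that fit holds only the 3 retinoic acid rats of day 5.

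Responses were sorted into kinds by these tests. A response grew where the difference was called and the late effect was called and the larger, with the sign of the difference. It faded where the early effect was called and the larger. It reversed where both were called with opposite signs. It was flat where both were called with the same sign and the 95% interval of the difference lay within 0.5 log2 units of 0. By this rule 787 features were flat (4.29%), 607 faded (3.31%), 302 grew (1.64%) and 79 reversed (0.43%). Another 318 were called in both arms with the same sign but were neither flat nor different, with median effects of 0.86 late and 0.74 early where raised and -0.62 late and -0.77 early where lowered. A called early effect is part of the definition of fading, so a gene whose early rats lay far from vehicle by chance is prone to be counted there, and likewise a late one among the growing.

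**Figure D1:**
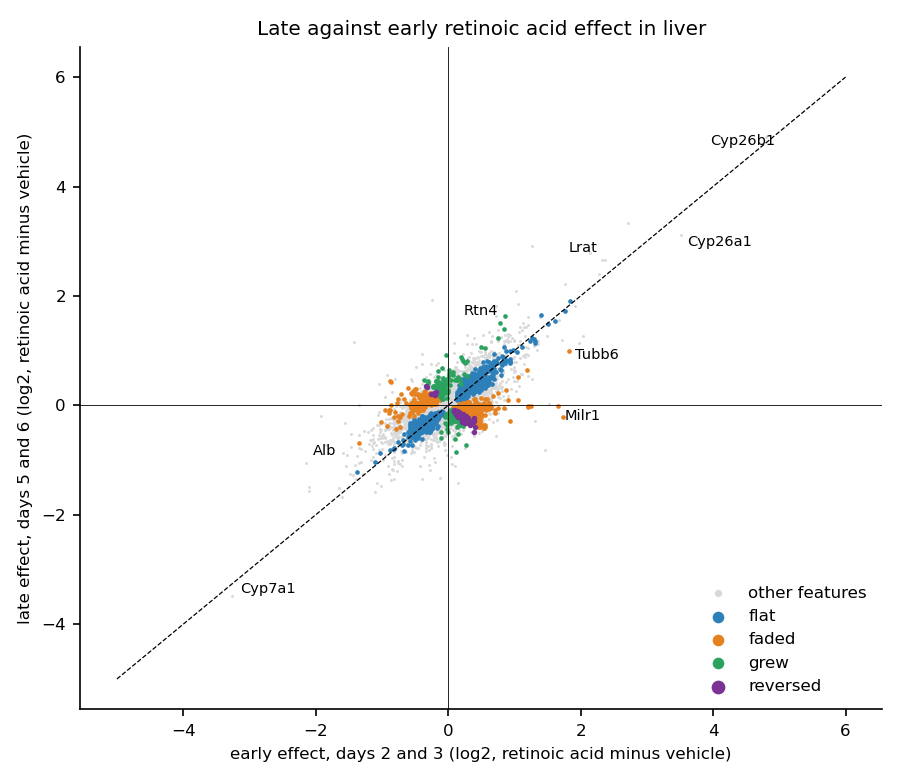
Late effect (days 5 and 6, vertical axis) against early effect (days 2 and 3, horizontal axis) of retinoic acid over vehicle in liver, both in log2 units, for 18362 features coloured by kind of response; the dashed line marks equal effects. Cyp26b1, Cyp26a1, Lrat and Cyp7a1 lie near the line at the extremes, while growing, fading and reversed features crowd around the origin.

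The best-known retinoid targets were raised both late and early. Cyp26b1 stood 29.9-fold above vehicle late and 27.8-fold early, Cyp26a1 8.68-fold late and 11.4-fold early, and Lrat 6.32-fold late and 5.0-fold early. For none of the 3 was the difference called, but none met the rule for a flat response either. Rarb and Rarg, the beta and gamma receptors of retinoic acid, were raised to a lesser degree in both arms and were flat.

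Cyp26b1, which inactivates retinoic acid, had log2 ratios to the pool of 4.05, 4.87 and 5.41 (lowest, median and highest) in late retinoic acid rats and of -0.82, -0.13 and 1.13 in late vehicle rats. Early it had 4.69, 4.78 and 4.92 in retinoic acid rats and -0.93, 0.01 and 0.83 in vehicle rats. Every retinoic acid rat lay far above every vehicle rat. The 3 rats of day 5 were the lowest of the retinoic acid group (4.05, 4.42 and 4.31) and those of day 6 the highest (5.33, 5.33 and 5.41), so the days of the late arm differed by more than the late and early means. The late effect was 4.90 and the early effect 4.80, a difference of 0.11 ± 0.27 (SE, limma) with adjusted p = 0.88 and a 95% interval from -0.42 to 0.63.

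Cyp26a1, the Cyp26 enzyme with the repeat shown above, had 2.37, 3.07 and 4.24 in late retinoic acid rats and -0.95, -0.06 and 0.87 in late vehicle rats. Early it had 2.27, 3.64 and 4.65 in retinoic acid rats and -0.79, -0.02 and 0.79 in vehicle rats. The groups did not overlap, and the 3 rats of day 3 alone (2.27, 4.65 and 2.58) spanned the whole early range. The difference was -0.40 ± 0.35 with adjusted p = 0.56, and its 95% interval ran from -1.10 to 0.31.

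Lrat had 2.33, 2.65 and 2.93 in late retinoic acid rats and -0.58, 0.01 and 0.43 in late vehicle rats. Early retinoic acid rats lay at 2.21, 2.32 and 2.5, and the highest early vehicle rat at 0.91. The difference was 0.34 ± 0.20 with adjusted p = 0.34 and a 95% interval from -0.07 to 0.74, so the slightly higher late values did not pass the test. Lrat is also a marker of stellate cells, which hold the liver's vitamin A. In bulk liver more cells of a type cannot be told apart from more RNA per cell, nor fewer cells from less RNA per cell.

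Rarb carries the repeat shown above. It had 0.66, 0.81 and 1.10 in late retinoic acid rats and -0.49, -0.06 and 0.39 in late vehicle rats, and 0.39, 0.77 and 1.55 in early retinoic acid rats against -0.25 to 0.34 in early vehicle rats. The lowest retinoic acid rat, 1314 at 0.39, lay just above the early vehicle rats. The late effect was 0.89 (adjusted p = 3.3e-12) and the early effect 0.83 (9e-11), and the difference of 0.06 ± 0.14 had a 95% interval from -0.22 to 0.34. Rarg, singled out after its values were seen, had effects of 0.52 late and 0.64 early and was flat as well.

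Tgm2, the tissue transglutaminase gene that retinoic acid raises in many cells, was 1 of 3 genes of the retinoid lists whose response faded. Its late retinoic acid rats had 0.41, 0.65 and 1.33 and late vehicle rats -0.39, 0.05 and 0.53, while early retinoic acid rats had 0.57, 0.89 and 2.61 and early vehicle rats -0.52, -0.01 and 0.32. Rat 1314 alone gave the value of 2.61, well above the next (1.27). The difference was -0.54 ± 0.18 (adjusted p = 0.049), and -0.28 (adjusted p = 0.64) without rats 1309 and 1314. Another was Nrip1, a corepressor of nuclear receptors, with an early effect of 0.38 (adjusted p = 3.3e-05), no late effect (adjusted p = 1) and a difference of -0.38 (adjusted p = 0.015), which had adjusted p = 0.18 without those 2 rats.

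**Figure D2:**
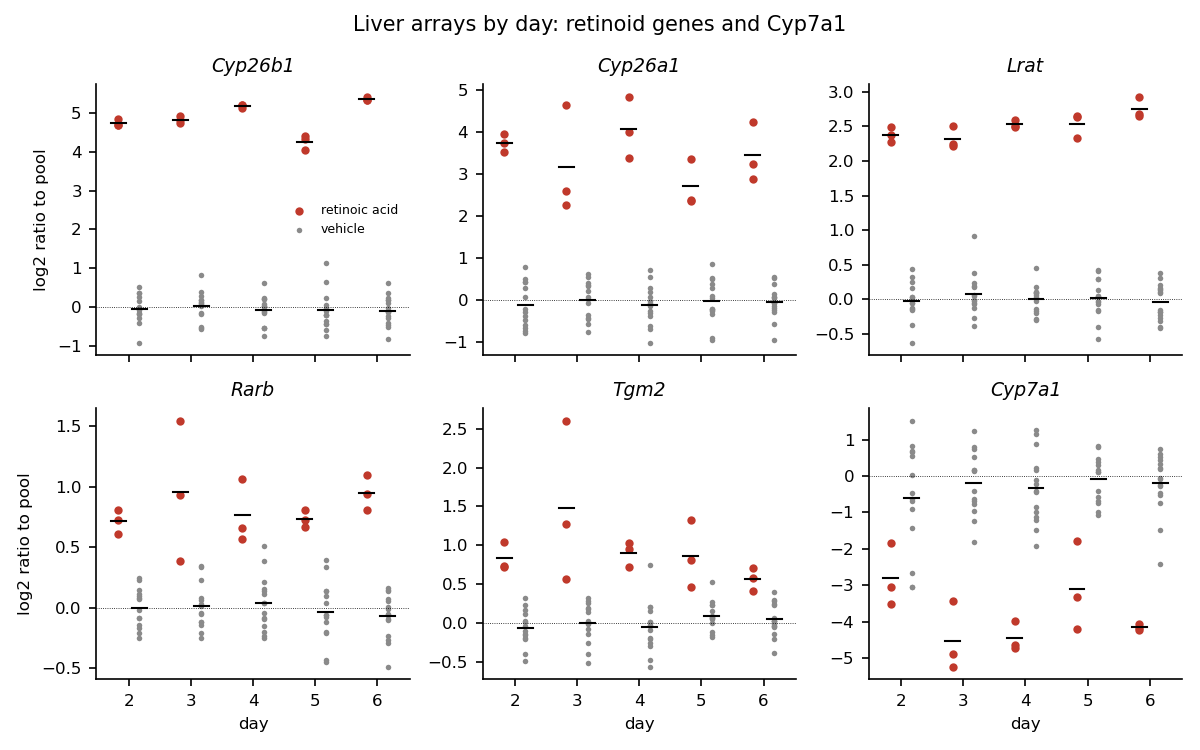
Log2 ratio to the same-day vehicle pool for 6 genes by day (2 to 6), with 1 point per rat (red, retinoic acid; grey, vehicle) and a bar at each group's mean. Retinoic acid rats lie above all vehicle rats for Cyp26b1, Cyp26a1 and Lrat on every day, the highest Tgm2 value (2.61) is 1 rat of day 3, and Cyp7a1 lies near or below the lowest vehicle rats.

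Over the retinoid lists, the effect was called late for 4 higher and 3 lower of 19 measured genes of retinoid oxidation and reduction, and early for 5 higher and 4 lower. Their median effect was -0.02 late and -0.09 early, beside -0.015 and 0.012 over all features. Only Rdh14, a retinol dehydrogenase and the third fading gene, was called for the difference (0.39, adjusted p = 0.044), with an early effect of -0.25. Without rats 1309 and 1314 its difference was 0.17 (adjusted p = 0.73). Among 23 receptors, corepressors and known targets, 5 were higher and 2 lower late, and 6 higher and 2 lower early. The storage and transport list had 1 higher and 2 lower of 11 late, and 2 higher and 2 lower early. Cyp2c22, a rat P450 of the 2C family (1.82 late, 1.91 early), rose in both arms, and Rbp7, a retinol-binding protein (-0.60 and -0.69), and Aldh1a1, a retinal dehydrogenase (-0.56 and -0.76), fell in both. Cyp2c22 and Rbp7 were singled out after their values were seen. Dhrs3 and Cyp2c7 were not among the features tested, and Crabp2, a binding protein for retinoic acid, was called in neither arm.

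Among the genes named here the largest fall in both arms was that of Cyp7a1, the rate-limiting enzyme of bile acid synthesis. Its late retinoic acid rats had -4.24, -4.12 and -1.79 and late vehicle rats -2.42, 0.02 and 0.84, while early retinoic acid rats had -5.24, -3.47 and -1.83 and early vehicle rats -3.04, -0.44 and 1.53. Most retinoic acid rats lay below every vehicle rat, but the highest of each arm overlapped the lowest vehicle rats. Cyp7a1 fell to 0.0894 of vehicle late (adjusted p = 7.7e-09) and to 0.105 early (adjusted p = 7.4e-08). The difference of -0.23 ± 0.68 (adjusted p = 0.90) had an interval from -1.58 to 1.13, so a change of either sign within it was not detectable with these rats.

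The flat responses were led, by the rule for named genes, by Irak3, Gpr108, Gar1, Pdlim1, Gse1 and Nedd1 among those raised and by Clec14a, Gstm1, Il34, Mgst2, Vcam1 and Ldb3 among those lowered. Of the 787 flat features 423 were raised and 364 lowered, and 430 of them were flat without rats 1309 and 1314 too. Their median effects on days 2, 3, 4, 5 and 6 were 0.31, 0.42, 0.38, 0.37 and 0.39 for the raised and -0.22, -0.41, -0.34, -0.28 and -0.35 for the lowered. The day 4 livers, which are in neither arm but share the model's estimate of the spread, had the same sign for 419 of the 423 raised and 363 of the 364 lowered features. Over all features the day 4 sign was that of the early effect in 66% and of the late effect in 72.3%. Features called in both arms but neither flat nor different kept their sign on day 4 in 166 of 166 raised and 150 of 152 lowered. A shared sign on day 4 thus does not mark a flat response. Only 221 of the raised and 199 of the lowered flat features were nearer on day 4 to the late than to the early effect (52.2% and 54.7%, beside 57.2% of all features).

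Irak3, a kinase relative that restrains signalling by Toll-like receptors, had 1.37, 1.85 and 2.05 in late retinoic acid rats and 1.36, 1.52 and 3.31 in early ones, against at most 0.54 and 0.60 in the late and early vehicle rats. Rat 1314 gave the highest value. The difference was 0.05 ± 0.22 (adjusted p = 0.93). Gpr108, a membrane protein of the Golgi, had effects of 1.73 late and 1.77 early, and Gar1, a protein of the box H/ACA ribonucleoproteins, of 1.66 and 1.40. Clec14a, an endothelial lectin, was lower in every retinoic acid rat than in every vehicle rat, at -1.21, -0.89 and -0.60 late and -1.26, -1.06 and -0.60 early, where late vehicle rats reached down to -0.34 and early ones to -0.52. Gstm1 and Mgst2, which conjugate glutathione, fell by 0.80 and 0.73 late and by 0.81 and 0.70 early. Il34, a ligand of the macrophage receptor Csf1r, fell by 0.84 late and 0.67 early, and Vcam1, an adhesion molecule for leukocytes, by 0.66 and 0.76.

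In 47 features all 12 retinoic acid rats of both arms lay outside all 58 vehicle rats, 37 above (0.202% of features) and 10 below (0.0545%). None was called for the difference and 31 were flat, with a median absolute difference of 0.12, but asking for 12 of 12 rats leaves out genes with a large difference by its nature. These genes were not part of the rule for names. Beside those given above they include Gria3, a glutamate receptor subunit (2.41 late, 2.28 early), Eci3, an enoyl-CoA isomerase (1.61 and 1.20), Ada, adenosine deaminase (1.35 and 1.07), Alpl, alkaline phosphatase (0.89 and 1.16), and Tiparp, an ADP-ribosyltransferase (0.78 and 0.94). Hhip, an inhibitor of hedgehog ligands (-0.63 and -0.68), and Lhx2, a homeobox factor (-0.63 and -0.86), lay below. Slc28a2, a nucleoside transporter, rose about as far (2.65 and 2.37) but with overlap of single rats.

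Growing responses were 108 upward and 194 downward, with median effects of 0.37 late and -0.09 early for the upward and -0.17 and 0.08 for the downward. The named upward genes were Glrx, Tmem135, Pde3b, Ccng2, Rtn4, Rnf13, Zc4h2 and Ctps2, with differences of 0.58 to 0.83. These were 0.27 to 0.59 without the 2 widest early arrays, and none was called (adjusted p = 0.39 to 0.76). Rtn4, a reticulon of the endoplasmic reticulum, had 0.63, 1.5 and 1.71 in late retinoic acid rats and 0.10, 0.72 and 1.44 in early ones, against late vehicle rats at -0.74, -0.13 and 0.76 and early ones at -0.69, -0.09 and 0.57. Its effect was 0.46, 1.10, 1.38, 1.41 and 1.59 on days 2 to 6. The difference was 0.72 ± 0.24 (adjusted p = 0.049), and 0.51 (adjusted p = 0.54) without the 2 widest early arrays.

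In several of these genes 1 early rat stood far below the others. Ccng2, an unusual cyclin linked to cell cycle exit, had -2.0 in rat 1314 and -0.29 to 0.42 in the other early rats, against 0.04, 0.46 and 0.81 late. Pde3b, a cyclic nucleotide phosphodiesterase, had -1.48 in rat 1314. The differences of Ccng2 and Pde3b were 0.76 and 0.78, and 0.34 and 0.27 without the 2 widest arrays. Rnf13, a ubiquitin ligase, had 0.61, 0.78 and 1.23 in late rats and -0.64, 0.42 and 0.82 in early ones, with the early minimum in rat 1309. Glrx, glutaredoxin, had effects of 0.46 late and -0.37 early. Mmp9, a gelatinase singled out after its values were seen, had effects of 0.44, 1.27, 2.05, 1.35 and 1.43 on days 2 to 6, with a difference of 0.53 (adjusted p = 0.025), or 0.60 (adjusted p = 0.18) without the 2 widest arrays. It was lowest on day 2 and highest on day 4, which is in neither arm.

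The named downward growers were Spp1, Mif, Gfap, Fxyd3, Stk11, Gstm2, Pgls and Hdgf, with differences of -1.0 to -0.43. Leaving out the 2 widest arrays gave -0.75 to -0.38, and none was called (adjusted p = 0.17 to 0.48). Gstm2, a glutathione transferase, had -0.91, -0.53 and -0.47 in late retinoic acid rats and -0.85, -0.03 and 0.44 in early ones, against -0.43 to 0.39 in late and -0.59 to 0.37 in early vehicle rats. All late retinoic acid rats lay below all late vehicle rats. By day its effect was 0.27, -0.49, -0.64, -0.68 and -0.50, so that day 3 already stood with the later days. Its difference was -0.48 ± 0.14 (adjusted p = 0.028), and -0.56 (adjusted p = 0.17) without the 2 widest arrays. Spp1, osteopontin and on the list of cholangiocyte markers, had -1.29, -0.65 and -0.29 late and -0.33, 0.01 and 1.78 early. The 1.78 was that of rat 1314, and the late rats overlapped late vehicle rats (-1.04 to 0.96). Gfap, on the list of stellate cell markers, had -1.0, -0.48 and 0.04 late and -0.23, 0.11 and 0.95 early, again with the highest value in rat 1314. Mif, a cytokine, and Stk11, the kinase LKB1, had differences of -0.72 and -0.55.

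Fading responses numbered 432 that were raised early and 175 that were lowered early. The raised set had median effects of 0.27, 0.19, -0.06 and -0.14 on days 2, 3, 5 and 6. In single early rats the median was 0.42 in rat 1309, -0.02 in rat 1311 and 0.33 in rat 1312 (day 2), and 0.03 in rat 1313, 0.30 in rat 1314 and 0.15 in rat 1316 (day 3). The raised set was thus near 0 in 2 of the 6 early rats. On day 4 it lay nearer to the late than to the early effect in 357 of the 432 (82.6%, beside 57.2% of all features), and the lowered set in 114 of 175 (65.1%). Fading features were chosen for a large early effect. Day 4 then tends to lie nearer to the late effect by that choice alone, so these shares do not test the fading.

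Several of the largest fading differences came from single rats. Milr1, an inhibitory receptor of mast cells, had 6.64, the limit of the scale, in rat 1316 and -0.24 to 0.25 in the other early rats measured, and was missing in rat 1314, which the fit leaves out for this gene. Its difference of -1.66 (adjusted p = 0.0022) was 0.05 (adjusted p = 0.81) without rat 1316. Reg3b, a lectin secreted in injury, had 4.36 in rat 1314 and 0.22 to 0.59 in the other early rats, and Tubb6, a tubulin, had 5.05 there and 0.62 to 1.76 elsewhere. The differences of Reg3b and Tubb6 were -0.96 and -0.83, and -0.21 and -0.28 without the 2 widest arrays. Opn4, melanopsin, had 4.19 in rat 1316, and Arid5a, an RNA-binding protein, 3.87 in rat 1314. The remaining named faders, Cfap97d2, Trib1 and Foxe1, had 2 high early rats each. Cfap97d2 had 3.13 in rat 1314 and 1.92 in rat 1312, with -0.28 to 0.36 in the other early rats and a low late value of -1.38 in rat 1323. Trib1, a pseudokinase, had 1.58 and 1.08 in rats 1309 and 1312, and Foxe1, a forkhead factor, had 1.59 and 1.10 there. Their differences of -1.22, -0.79 and -0.72 were -0.94, -0.57 and -0.56 without the 2 widest arrays (adjusted p = 0.23, 0.46 and 0.25).

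Of the 175 fading falls 0 kept their kind without rats 1309 and 1314, beside 11 of the 432 fading rises. Mpdz, a scaffold with PDZ domains, had -0.20, 0.01 and 0.08 in late retinoic acid rats and -2.02, -0.46 and -0.36 in early ones, against -0.33 to 0.46 in late and -0.34 to 0.48 in early vehicle rats. All 6 early rats lay below the early vehicle range and all 6 late rats inside the late one. By day its effect was -0.73, -1.06, -0.42, -0.23 and 0.04. The difference was 0.80 ± 0.17 (adjusted p = 0.0035). It was 0.39 (adjusted p = 0.37) without the 2 widest arrays, 1 of which held the value of -2.02. Tmem106b, a lysosomal membrane protein, had 0.18 as its late median and -0.63 as its early one, with its lowest values in rats 1314 (-1.57) and 1309 (-1.31). Its difference of 0.91 (adjusted p = 0.0066) was 0.54 (adjusted p = 0.36) without those rats. Lef1 and Fzd8, a transcription factor and a receptor of Wnt signalling, had -2.83 and -2.58 in rat 1314, and differences of 0.80 and 0.77, or 0.44 and 0.31 without the 2 widest arrays. Smcp had -3.49 in rat 1316 and -1.31 in rat 1314, against -0.39 to 0.63 in the other early rats. Gpsm2, Stxbp6 and Clec2g were the other named ones. Of the 8 named falls none was called for the difference without the 2 widest arrays (adjusted p = 0.19 to 0.69).

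Reversed responses were 72 that were higher early and lower late and 7 the other way. Those named were Drg1, Fancf, Wnt11, Magmas-ps1, Gipc1 and Il16. Drg1, a developmentally regulated GTPase, had -1.04, -0.27 and 0.39 in late retinoic acid rats and 0.09, 0.27 and 0.47 in early ones, against -0.50 to 0.55 in late and -0.88 to 0.30 in early vehicle rats. Its effect was 0.33, 0.34, 0.07, 0.02 and -0.68 on days 2 to 6, so the late fall was that of day 6. The difference was -0.67 ± 0.14 (adjusted p = 0.0038), and -0.62 (adjusted p = 0.11) without the 2 widest arrays. Gipc1, an adaptor of membrane proteins, had -0.40, -0.30 and -0.06 late and -0.23, 0.20 and 0.74 early, and Il16, a chemoattractant of CD4+ cells, had 0.03, 0.31 and 0.55 late and -0.75, -0.19 and 0.04 early. For both genes the retinoic acid rats overlapped the vehicle rats in part, and the effects were small, at -0.25 late and 0.25 early for Gipc1 and 0.20 late and -0.26 early for Il16. Their differences of -0.51 and 0.46 were -0.30 and 0.32 without the 2 widest arrays (adjusted p = 0.26 and 0.25).

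**Figure D3:**
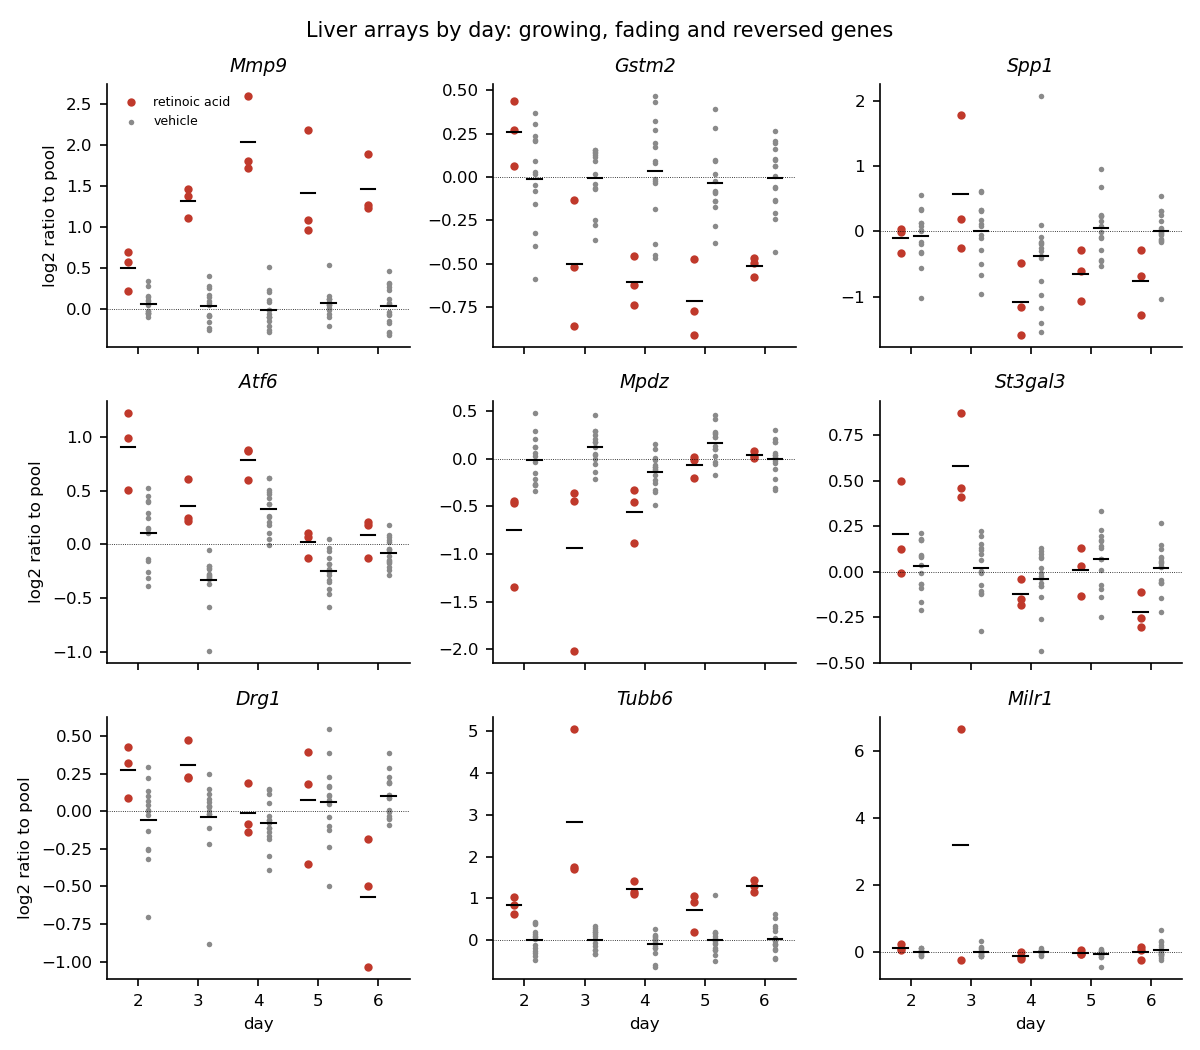
Log2 ratio to the same-day vehicle pool by day (2 to 6) for growing (Mmp9, Gstm2, Spp1), fading (Atf6, Mpdz, St3gal3, Tubb6, Milr1) and reversed (Drg1) genes, with 1 point per rat (red, retinoic acid; grey, vehicle) and a bar at each group's mean. Tubb6 and Milr1 each owe their early mean to 1 rat of day 3 (5.05 and 6.64), while for Mpdz all 6 early retinoic acid rats lie below their vehicle range.

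How far the calls depended on single rats was described by leaving out each of the 12 retinoic acid rats in turn. Each such fit has 1 rat fewer and its own adjusted cut for all features. A lost call by itself therefore does not show that a gene's difference rested on the rat left out. The count of called differences was 44 without rat 1309, 333 without rat 1314, 2280 without rat 1311, 1806 without rat 1313, 690 without rat 1312, 582 without rat 1324 and 581 without rat 1326. Flat responses numbered 598 to 725 in the same fits, and 258 of the 787 were flat in all of them. Of the faded features 7 kept their kind in every fit, and of the grown and reversed ones 0. Of the 38 growing, fading and reversed genes named by size, only Drg1 was called in all 12 fits, 34 lost their call without rat 1309 and 23 without rat 1314. The early rat farthest from the early median was 1314 for 20 of them and 1309 for 9.

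The call held without each rat in turn for 27 features, 9 of them named genes, singled out after their values were seen: Heatr6, Drg1, Eppin, St3gal3, Clec16a, Cacna1b, H1f10, Pgs1 and Olfml2a. All 9 had a lower late than early effect. St3gal3, a sialyltransferase, had -0.31, -0.12 and 0.13 in late retinoic acid rats and -0.005, 0.43 and 0.87 in early ones, against late vehicle rats at -0.25 to 0.34 and early ones at -0.32 to 0.23. Of the 6 early rats 4 lay above every early vehicle rat and 2, both of day 2, inside their range. Its difference was -0.52 ± 0.10 (adjusted p = 0.0032), and -0.50 (adjusted p = 0.03) without the 2 widest arrays. Heatr6 was called in every fit although rat 1314 had 2.87 and the other early rats 0.08 to 0.31, and its difference without that rat was -0.22 (adjusted p = 0.048). Without both wide arrays it was -0.20 (adjusted p = 0.25). In 209 features (1.14%) the late and early retinoic acid rats did not overlap, and 129 of these were among the 1137 called.

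**Figure D4:**
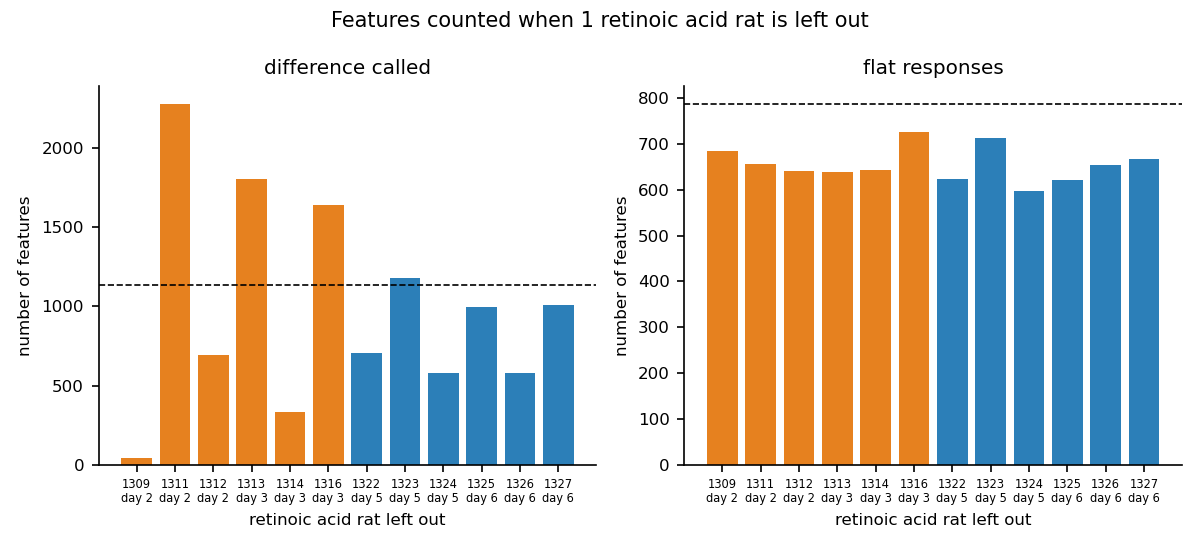
Number of features called for the late minus early difference (left) and number of flat responses (right) when 1 retinoic acid rat is left out, for rats of days 2 and 3 (orange) and of days 5 and 6 (blue); the dashed lines mark the counts with all rats (1137 and 787). The count of differences runs from 44 to 2280, that of flat responses from 598 to 725.

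The gene lists were described by counts of called members, to be read beside the shares of all features called higher and lower (7.21% and 7.73% late, 11.6% and 9.51% early). Without the 2 widest early arrays the early effect was called for 1309 of 18362 features, in either direction. An unadjusted p under 0.05 in limma was found for 5203 of 18362 features late, 6118 early and 3910 for the difference. Unadjusted counts of list members are to be read beside these. Mitochondrial beta-oxidation and ketogenesis had 0 higher and 6 lower of 29 late and 0 higher and 13 lower early, with a median effect of -0.19 late and -0.24 early. Bdh1, which makes the ketone body 3-hydroxybutyrate, was flat (-0.47 and -0.57), and Fgf21, a fasting hormone of the liver, fell in both arms (-1.10 and -0.91). Acadl, Acaa2 and Hadhb, enzymes of the oxidation spiral, were called early (-0.40, -0.64 and -0.46) and not late (-0.14, -0.43 and -0.24), but none of their differences was called (adjusted p = 0.27, 0.67 and 0.49). Of the list only Acads was called for the difference (-0.29, adjusted p = 0.033), with -0.28 (adjusted p = 0.26) without the 2 widest arrays. Without the 2 widest arrays 2 of the 29 were called early, beside 1309 of 18362 features. Ppara, the receptor that governs the pathway, fell by 0.51 late and 0.81 early.

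Fatty acid and triglyceride synthesis had 0 higher and 7 lower of 36 late and 2 higher and 8 lower early. None was called for the difference, and 1 had an unadjusted p under 0.05 in limma, beside 3910 of 18362 features. Of the list 4 were called early without the 2 widest arrays, beside 1309 of 18362 features. Fads2, a desaturase, fell by 1.48 late and 1.02 early, with late retinoic acid rats at -2.27, -1.32 and -0.97 and early ones at -2.63, -0.80 and 0.39, where the lowest late vehicle rat had -0.75. Dgat2, which makes triglyceride, was flat (-0.38 and -0.31). Srebf1, a master regulator of the pathway, had effects of -0.44 late (adjusted p = 0.0082) and -0.15 early (adjusted p = 0.42), and its difference was not called (adjusted p = 0.36). Bile acid synthesis and transport had 2 higher and 4 lower of 24 late and 3 higher and 7 lower early, among them Cyp7b1, of the alternative pathway, which was flat and raised (0.58 and 0.39). Abcg5, a sterol exporter, fell by 1.59 and 1.11.

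Gluconeogenesis, glycolysis and glycogen had 2 higher and 8 lower of 30 late and 1 higher and 7 lower early, with Slc37a4, the glucose 6-phosphate transporter, at -0.63 and -0.83, and Ppargc1a, a coactivator of fasting genes, flat at -0.34 and -0.54. Interferon response and antigen presentation had 9 higher and 2 lower of 39 late and 10 higher and 2 lower early. Irf1, Tap2 and Psmb8, an interferon factor, a peptide transporter and an immunoproteasome subunit, were flat at 0.49, 0.38 and 0.42 late and 0.52, 0.39 and 0.46 early. Without the 2 widest arrays 3 of that list were called early, beside 1309 of 18362 features. In amino acid catabolism 4 were higher and 2 lower of 39 late and 6 higher and 5 lower early. Acmsd of the tryptophan pathway (1.38 and 1.12) and Gnmt, a glycine methyltransferase (0.87 and 0.98), rose in both arms. Cell cycle and DNA replication had 4 higher and 2 lower of 47 late and 7 higher and 1 lower early, with Birc5, survivin, flat (0.50 and 0.52). Without the 2 widest arrays 1 of that list was called early, beside the same 1309 of 18362 features. Acute phase and complement had 3 higher and 1 lower of 30 late and 7 higher and 0 lower early, with Orm1, an acute phase glycoprotein, at 1.17 and 1.35. In the fit without the 2 widest arrays 4 of the acute phase list were called early, 8 of amino acid catabolism, 6 of gluconeogenesis, glycolysis and glycogen and 6 of bile acid synthesis and transport. These counts take both directions together, as does the 1309 of 18362 features called early in that fit. Most of the genes named in these lists were singled out after their values were seen, since few list members were called for the difference.

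In the unfolded protein and integrated stress response 6 of 39 measured members were called for the difference, beside 6.19% of all features. The effect was higher late for 1 (Canx) and lower for 5 (Atf6, Atf4, Xbp1, Asns and Gdf15). Late 3 were higher and 2 lower, and early 11 higher and 2 lower, with median effects of 0.07 late and 0.13 early. Xbp1, Asns and Atf4 had their highest early value in rat 1314 (2.79, 2.63 and 1.36), and their differences without rats 1309 and 1314 were -0.26, -0.09 and -0.24 (adjusted p = 0.70, 0.86 and 0.51). Atf6, a sensor of misfolded protein, was raised in more rats, at 0.22, 0.56 and 1.23 early against 0.53 at most in early vehicle rats and at -0.13, 0.09 and 0.21 late. Its effect was 0.80, 0.69, 0.45, 0.27 and 0.17 on days 2 to 6. The difference was -0.53 (adjusted p = 0.019), or -0.39 (adjusted p = 0.39) without the 2 widest arrays. Set against the mean of the other compounds, where vehicle cancels, the Atf6 difference was -0.07 (adjusted p = 0.86, limma) and not called. Its vehicle rats also differed by day, at -0.389 to 0.526 on day 2 and -0.99 to -0.055 on day 3. Without the 2 widest arrays 0 members of the list were called for the difference by limma, beside 15 of 18362 features. In that fit 5 members had an unadjusted p under 0.05, and the share of all features at that cut was not counted.

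Markers of the cells a liver sample can hold were described in the same way. Of the 20 Kupffer cell and macrophage markers limma called 0 late and 0 early. At an unadjusted p under 0.05 they were 3 and 0, beside 5203 late and 6118 early of 18362 features. The median of that list in each rat ran from -0.11 to 0.07 in late retinoic acid rats and -0.24 to 0.32 in late vehicle rats, and from -0.61 to 0.23 and -0.21 to 0.25 early. Of 11 hepatocyte markers 0 were higher and 3 lower late and 1 was higher and 3 lower early. Alb, albumin, had effects of -1.06 late and -2.14 early, but its difference of 1.07 was not called (adjusted p = 0.081), and early rat 1314 had -3.93. That difference was 0.58 (adjusted p = 0.71) without the 2 widest arrays. Of 22 lymphocyte markers 2 were higher and 2 lower late and 3 were higher and 0 lower early, and the kinase gene Lck was flat and raised (0.94 and 0.69). Of 12 endothelial markers 1 was higher and 1 lower late and 2 were higher and 1 lower early, and Lyve1, a hyaluronan receptor, was flat and raised (0.71 and 0.52). None of these 4 lists had a member called for the difference. At an unadjusted p under 0.05 in limma the macrophage, hepatocyte, lymphocyte and endothelial lists had 2, 3, 6 and 1. Over all features 3910 of 18362 passed that cut, and the lists were not tested against that share.

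In other marker lists some members were called for the difference, to be read beside 6.19% of all features. The lists are small, and none was tested against that share. Of 24 stellate cell and fibroblast markers 3 were higher and 2 lower late and 4 higher and 2 lower early, and the effect was lower late than early for Gfap (-0.69) and Des, the muscle-type filament desmin (-0.30). The median of that list ran from -0.08 to 0.09 in late retinoic acid rats and -0.11 to 0.08 in late vehicle rats, and from -0.08 to 0.23 and -0.11 to 0.09 early. Of 11 cholangiocyte markers 0 were higher and 1 lower late and 1 was higher and 0 lower early, and Muc1, a mucin (-0.23), and Spp1 (-1.0) had the lower late effect. That list's median ran from -0.13 to 0.01 in late retinoic acid rats and -0.09 to 0.24 in late vehicle rats, and from -0.14 to 0.16 and -0.19 to 0.15 early. The late groups of the cholangiocyte list overlapped only in part, and the part of these cells in the fall of Spp1 was not tested. Of 11 erythroid markers 1 (Ahsp) was called for the difference, of 10 adipocyte markers 1 (Retn), of 17 exocrine pancreas markers 2 (Clps and Amy2a3), and of 9 neutrophil and 14 skeletal muscle markers 0 (0 and 1 at an unadjusted p under 0.05 in limma, beside 3910 of 18362 features). In the fit without the 2 widest arrays limma called 0 members of these marker lists for the difference, beside 15 of 18362 features. Per list 0 to 3 had an unadjusted p under 0.05 there, and the share of all features at that cut was not counted. The erythroid list ran from -0.39 to 0.03 in late retinoic acid rats and -0.03 to 0.41 in early ones, against -0.42 to 0.30 in late and -0.31 to 0.33 in early vehicle rats. The part of all these cells in the results above was not tested.

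The 4 other compounds were used to ask whether the late minus early difference was particular to retinoic acid. The difference minus the mean of theirs, a contrast in which vehicle and pool cancel, was called for 264 features (1.44%), 89 higher (0.485%) and 175 lower (0.953%). The compounds' own late minus early differences against vehicle were called for 92 features with fenofibrate, 7 with bezafibrate, 12 with Wy-14643 and 65 with rosiglitazone, and the vehicle rats' own for 22. All these share the vehicle rats and so are not independent of each other. Tmem106b (0.85, adjusted p = 0.035), Zc4h2 (0.66, 0.035), Il16 (0.52, 0.0063) and Atf4 (-0.52, 0.024) were among those called. Several genes described above were not, among them Drg1 (-0.44, 0.077), Mpdz (0.46, 0.12), Gstm2 (-0.37, 0.15) and Spp1 (-0.83, 0.16). Nor were Tgm2 (-0.44, 0.17), Rtn4 (0.42, 0.35) and Atf6 (-0.07, 0.86). The late minus early difference of Tmem106b was 0.91 with retinoic acid, against -0.09 with fenofibrate, 0.08 with bezafibrate, 0.16 with Wy-14643 and 0.11 with rosiglitazone. Without rats 1309 and 1314 the contrast was called for 9 features. Among them were Milr1, Opn4 and Hnf4g (adjusted p = 0.02, 0.046 and 0.02), each with rat 1316 as the early rat farthest from the early median. In the same fit the contrast was 0.48 for Tmem106b, 0.31 for Zc4h2, 0.38 for Il16 and -0.35 for Atf4, and called for none of the 4 (adjusted p = 0.66, 0.66, 0.24 and 0.47).

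The circadian clock genes differed between single rats by more than between groups. Bmal1 lay more than 1 log2 unit above the pool together with Dbp more than 1 below it in 5 of 15 retinoic acid rats, 2 on day 3, 2 on day 4 and 1 on day 5, and in 6 of 73 vehicle rats. In the rats of day 3 Bmal1 stood at 2.83, 2.93 and -1.01 and Dbp at -3.74, -4.08 and 0.41. In the first 2 of these rats Bmal1 lay above all 73 vehicle rats (2.63 at most) and Dbp below all of them (-3.23 at least). Neither Bmal1, Dbp nor Per2, core and output genes of the clock, was called for the difference (adjusted p = 0.89, 0.70 and 0.86). Of the 20 clock genes measured 0 were higher and 2 lower late, and 2 higher and 3 lower early. The early calls were lost without the 2 widest arrays, a fit that called 1309 of 18362 features early. Time of death was not used here, and its part in these values was not tested.

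**Figure D5:**
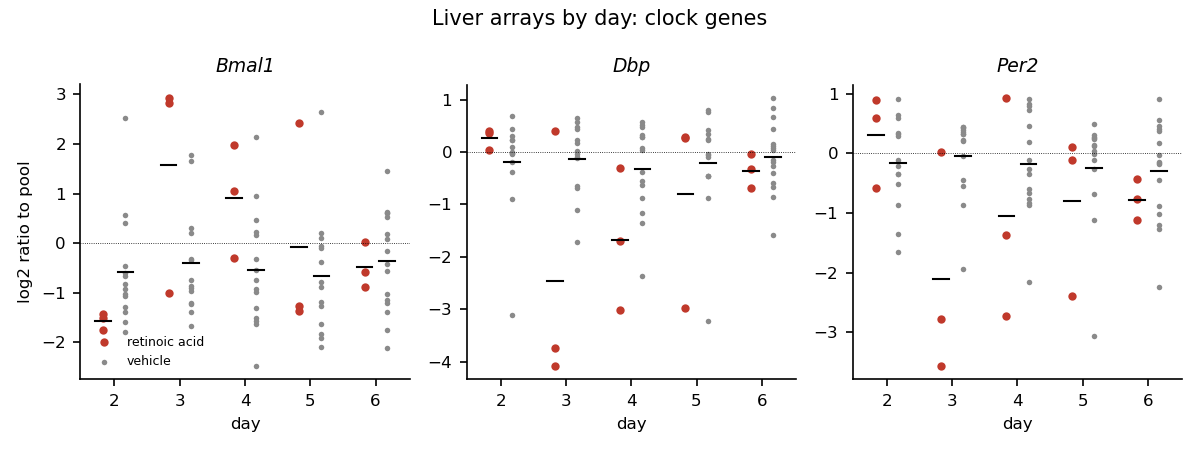
Log2 ratio to the same-day vehicle pool for Bmal1, Dbp and Per2 by day (2 to 6), with 1 point per rat (red, retinoic acid; grey, vehicle) and a bar at each group's mean. Retinoic acid rats of 1 day lie as far apart as 2.93 and -1.01 for Bmal1 on day 3, where 2 retinoic acid rats lie above every vehicle rat (2.63 at most over all days) and the third among them.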

How the data were processed

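RNA of single rat livers was hybridised on 2-colour arrays, per the labels, against a pool of vehicle livers of the same day in the other dye. The authors deposited log ratios for 23653 probes and 484 arrays, read here as log10. Base, direction and normalisation are not given in the sources used here. The base was inferred from the limits at -2 and 2, and the direction from the channel order in the labels, and the values were multiplied by 3.32 to give log2 ratios. Another base would scale all fold changes together. Of the columns 337 were not used. Of the liver values 1.2% were missing, and 331 were limit values. With no intensities used, precision is set by how many rats there are.

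The platform's gene table gave 15260 probes 1 gene, 17 several and 8376 none. Those of a gene were averaged (10210 genes, 3260 with more than 1 probe), which gave 18603 features with the unnamed probes. Of these, 18362 had a value on at least 80% of the 147 liver arrays and were tested, and 241 were left out. All liver arrays entered 1 linear model, with a mean for each pair of compound and day, in limma 3.58.1 in R 4.3.3 (statmod 1.5.0). The other compounds and day 4 thus helped to set the spread used in every test. Without rosiglitazone rat 1376 of day 4 the difference was called for 1674 features and 1152 were flat. Tests were two-sided and moderated, with Benjamini-Hochberg adjustment over all features at 0.05. Values in single rats are log2 ratios to the pool, and effects are retinoic acid minus vehicle of the same day. Arms average their days equally.

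Named genes are the 8 of each growing or fading direction, and the 6 reversed, with the largest difference, the 6 flat ones per direction with the largest mean effect, up to 4 called members of each gene list, and a fixed set of 20 (17 tested). Symbols that only number a locus were skipped. Genes outside this rule are said to be singled out. The comparison, the gene lists and the named set were chosen with earlier results of these data known. The procedure was tested on simulated data of the same design with features changed by known amounts. Every simulated array had the spread of the vehicle rats, so the simulation does not cover wide arrays like the early ones here. Tables were made in Python 3.11.15 with pandas 2.3.3 and numpy 2.4.6, and figures with matplotlib 3.10.9.

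Alternatives were another centring, scaling, array weighting, filter and probe level, fits on fewer arrays, a slope in place of the arms, and leaving out each rat or day. Leaving out each vehicle rat, and the 2 widest early arrays together, was added after seeing the data.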

Additional observations from a re-analysis of the deposited data

Results flagged for a closer look

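Late and early effects of retinoic acid differed by the test of the difference itself for 1137 features. The same difference set against the mean of the other 4 compounds was called for 264 features. Among named genes the effects had opposite signs in the 2 arms, each called, for Drg1 (late minus early -0.67), Fancf (-0.59), Wnt11 (-0.57), Magmas-ps1 (-0.54), Gipc1 (-0.51) and Il16 (0.46). Without rats 1309 and 1314 the differences of these 6 genes were -0.62, -0.48, -0.49, -0.45, -0.30 and 0.32, with adjusted p (limma, Benjamini-Hochberg) of 0.11, 0.21, 0.18, 0.18, 0.26 and 0.25.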

How the results depend on the processing

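As reported, limma called 2744 features late, 3876 early, 1137 for the difference and 264 for the difference against the other compounds, with 787 flat, 607 fading, 302 growing and 79 reversed. Counts that moved by over 1.5 times are given here, and the cause was not tested. With array quality weights they were 5792 late, 8150 early, 4058 for the difference, 3192 against the other compounds, 2321 flat, 1958 fading, 1222 growing and 599 reversed, and 42.8% of the differences were higher late, beside 28.7% as reported. With arrays scaled to one spread they were 1669 early, 173 for the difference, 2 against the other compounds, 41 fading, 108 growing and 4 reversed. With array medians subtracted, 173 were called against the other compounds. With only retinoic acid and vehicle arrays, 2064 differences were called, with 1263 flat, 1027 fading, 632 growing and 204 reversed. As ratios to the pool, 465 grew and 149 reversed. Without day 2, 77 grew, 17 reversed and 428 were called against the other compounds. Without day 3 there were 2355 early calls, 2026 differences, 1366 against the other compounds, 272 flat and 944 fading. Without day 5 there were 1636 late calls, 8 against the other compounds, 381 flat and 365 fading. Without day 6 there were 574 late calls and 0 differences (1892 at an unadjusted p under 0.05), 1 against the other compounds, 233 flat, 0 fading, 0 growing and 0 reversed. Without the 2 widest early arrays there were 1309 early calls, 15 differences, 9 against the other compounds, 15 fading, 0 growing and 0 reversed, and 551 flat. Without rosiglitazone rat 1376, which earlier work on these data put in doubt, 499 grew and 736 were called against the other compounds. A slope per day was called for 1721 features, differences of at least 0.5 log2 units numbered 271, and a margin of 0.3 left 382 flat.

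Leaving out 1 retinoic acid rat gave 1735 to 2914 late calls, 2165 to 4520 early calls, 44 to 2280 differences, 5 to 1456 against the other compounds, 598 to 725 flat, 23 to 1385 fading, 12 to 441 growing and 9 to 180 reversed. Leaving out 1 vehicle rat gave 1041 to 1492 differences. The difference changed sign for Tubb6 (0.16) and Smcp (-0.06) without day 3, and without rat 1316 for Milr1 (0.05, against as much as -3.38 without rat 1313) and Chga (-0.72, against as much as 1.08 without rat 1314). Of 77 named genes called for the difference, robust eBayes kept 77, subtracted medians 68, one spread 23, the fit without rat 1309 14 and that without the 2 widest arrays 6. No paired analysis was possible because each rat gave 1 liver array, so rat numbers are not shared between the groups compared.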
